A study of Rattus norvegicus with 20 samples.

Results

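The genes described here are 10 amino acid transporters, Slc7a5, Slc3a2, Slc7a1, Slc7a7, Slc7a10, Slc7a11, Slc1a3, Slc1a5, Slc38a1 and Slc38a2, measured in inguinal white adipose tissue (iWAT) of ZSF1 rats. They were chosen by name, all 10 were found among the 32545 genes with a row in the count table, and all 10 were among the 17653 genes that had reads in more than 10 of the 20 libraries and were tested. ZSF1 rats are the offspring of a cross between strains that each carry a leptin receptor mutation (Lepr fa and Lepr cp), and males that inherit both mutations overeat and become obese and diabetic. Bulk RNA sequencing covered 5 adult male rats in each of 4 groups. The Cmpd 1 group were obese rats whose high-carbohydrate chow (Purina) contained Cmpd 1, an inhibitor of protein kinase C alpha and beta. The Food matched group were obese rats on drug-free chow limited to about what the Cmpd 1 group had eaten the week before. The Obese group were untreated obese rats with free access to the chow, and the Lean group were untreated lean rats of the same cross on the same chow. All 3 obese groups carry the receptor mutations in every tissue, and Cmpd 1 was given to the whole animal with the diet. The study set Obese against Lean rats to find changes that come with disease, and Cmpd 1 against Food matched rats to find changes with the compound at an approximately matched food intake.

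Libraries held 31716457 to 65759306 counted reads in the Cmpd 1 group, 54649679 to 74784655 in the Food matched group, 56743417 to 70206686 in the Obese group and 50604956 to 68048796 in the Lean group. Lepr, the leptin receptor, averaged 1.43 ± 0.120 CPM (gene reads scaled to the same total in every library) in Cmpd 1 rats, 1.82 ± 0.328 in Food matched rats, 1.56 ± 0.260 in Obese rats and 7.66 ± 3.28 in Lean rats (SD, n = 5 each). Every adipocyte marker examined (12 genes, among them Adipoq and Plin1) had reads. Lean rats 1 and 2 stood apart by their skeletal muscle transcripts. The summed level of 7 muscle genes was 3078 and 5355 CPM in these rats, against 21.4 to 24.2 CPM in the other Lean rats and at most 86.5 CPM in any obese rat.

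Amino acids cross the plasma membrane through solute carriers (Slc), each with its own set of substrates. Slc3a2, the CD98 heavy chain, is the common partner that brings Slc7a5, Slc7a7, Slc7a10 and Slc7a11 to the cell surface, while Slc7a1, the Slc1 and the Slc38 carriers work without it. In many cells, a shortage of amino acids raises translation of the transcription factor ATF4, which binds C/EBP-ATF response elements (CARE) in the promoters of several of these transporter genes. Proliferating cells and activated macrophages are known for high uptake of arginine and glutamine.

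Of the 10 genes, 9 had entries in the RefSeq promoter set (assembly GRCr8), and Slc1a5 had none. The CARE motif TGATGNAA was searched on both strands from 250 bases before to 50 bases after each start. It was found in 3.98% of all 33469 rat promoter windows of that length and in 2 of the 12 windows of the 9 genes. The matches belonged to 2 of the 9, Slc7a1 and Slc38a1. These are also the 2 transporters that met the study's thresholds in both of its contrasts, so their promoters are shown, with the 250 bases before the start written 5′ to 3′ and the CARE match in capitals. The Slc7a1 stretch lies at chr12:11664238-11664487 on the plus strand with the match beginning 30 bases before the start, and the Slc38a1 stretch lies at chr7:129681402-129681651 on the minus strand with the match beginning 142 bases before the start.
Slc7a1: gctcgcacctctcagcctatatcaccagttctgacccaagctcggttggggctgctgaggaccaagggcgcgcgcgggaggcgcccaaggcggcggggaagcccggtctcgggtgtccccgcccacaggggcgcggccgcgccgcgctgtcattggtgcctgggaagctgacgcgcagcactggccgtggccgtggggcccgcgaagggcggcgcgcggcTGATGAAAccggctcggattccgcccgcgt
Slc38a1: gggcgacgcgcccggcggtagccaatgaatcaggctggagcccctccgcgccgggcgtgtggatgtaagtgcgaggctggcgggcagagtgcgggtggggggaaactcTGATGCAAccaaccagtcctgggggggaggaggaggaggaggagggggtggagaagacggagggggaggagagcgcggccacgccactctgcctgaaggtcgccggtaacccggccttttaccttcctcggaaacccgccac
The antioxidant response motif TGACNNNGC, which overlapped neither CARE match, occurred for 4 of the 9 genes (Slc7a1, Slc7a7, Slc38a2 and Slc3a2). These were 4 of the 12 windows, and 12.1% of all windows held the motif. A match is a description of the letters only, no binding was measured, and a link between matches and expression was not tested.

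**Figure D1:**
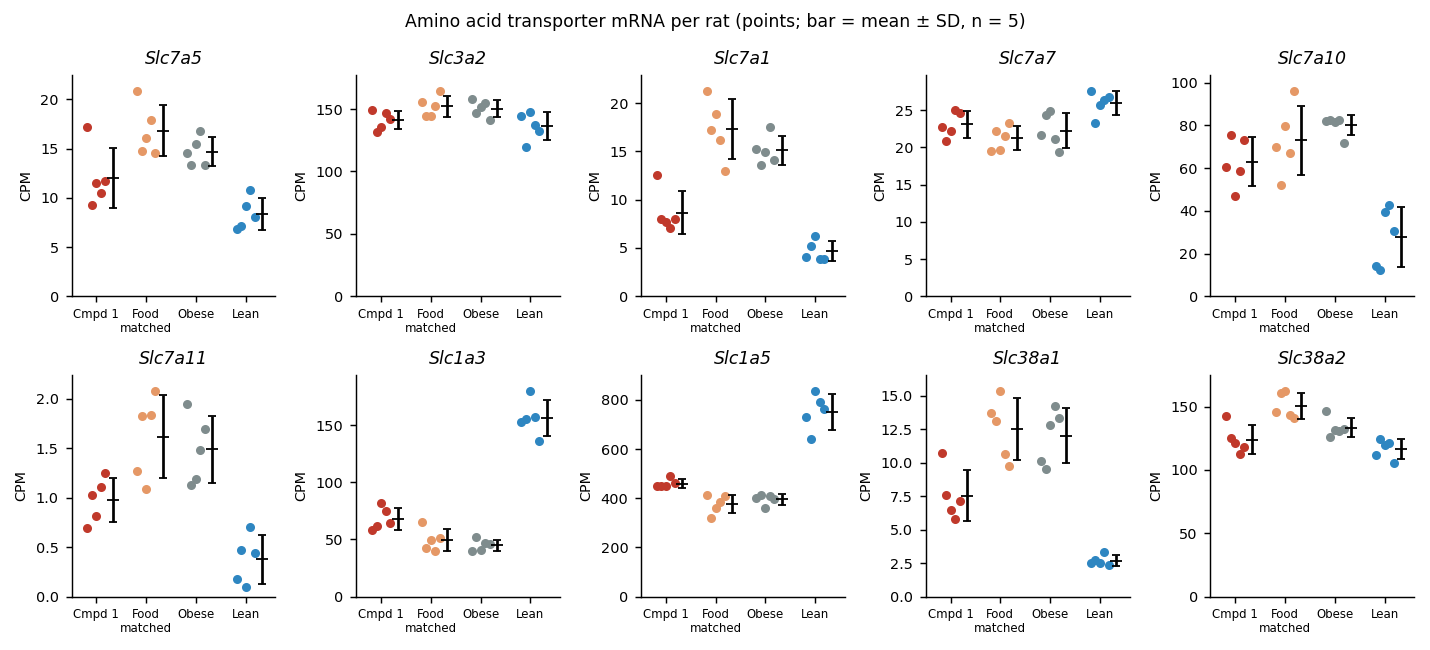
Level of each transporter in every rat, in CPM on a linear axis that starts at 0, with 1 panel per gene. Points are single rats, in the order Cmpd 1, Food matched, Obese and Lean, and bars give the mean ± SD (n = 5). Lean rats are lowest for Slc7a1 and Slc38a1 and highest for Slc1a3 and Slc1a5, without overlap with any other group.

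All 10 transporters differed between Obese and Lean rats at an adjusted p under 0.05 (edgeR), where 48.2% of all genes tested did, and 7 were differentially expressed genes (DEGs, a fold over 1.5 with an adjusted p under 0.05), where 22.3% of all genes were. Without Lean rats 1 and 2, whose libraries held muscle transcripts, 9 of the 10 passed, since Slc3a2 did not (edgeR adjusted p = 0.128). Of the 7 DEGs, 5 were higher and 2 lower in Obese rats, while 11.3% and 11% of all genes were DEGs in these directions. The arginine carrier Slc7a1, the glutamine carrier Slc38a1, the large neutral amino acid carrier Slc7a5, the small neutral amino acid carrier Slc7a10 and the cystine-glutamate exchanger Slc7a11 were higher in Obese rats. The glutamate carrier Slc1a3 and the glutamine carrier Slc1a5 were lower. Slc3a2, Slc38a2 and Slc7a7 moved by less than 1.5-fold. Obese and Lean rats did not overlap for 8 of the 10, the 7 DEGs and Slc38a2, as for 33.6% of all genes. The median log2 fold change was 0.50 over the 10 transporters and -0.01 over all genes tested.

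Cmpd 1 rats differed from Food matched rats in 2 DEGs of the 10, Slc7a1 and Slc38a1, both lower, where 6.19% of all genes were DEGs and 4.65% were lower. At any fold, 6 of the 10 passed an adjusted p under 0.05 (edgeR), where 22.8% of all genes did, and 5 passed without Food matched rat 1 or 4 or Cmpd 1 rat 2 or 4, since Slc7a5 did not. Slc1a3 and Slc1a5 were higher in Cmpd 1 rats, and Slc7a1, Slc38a1, Slc7a5 and Slc38a2 were lower. The groups did not overlap for Slc7a1 and Slc1a5, as for 14.9% of all genes. The median log2 fold change was -0.25 over the 10 transporters and 0.01 over all genes. Each of the 10 had opposite signs in the 2 contrasts, which share no rats, and so had 69.4% of all genes tested. Among genes that passed in both contrasts at any fold, the signs were opposite for all 6 transporters and for 96.5% of the 3126 genes overall.

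**Figure D2:**
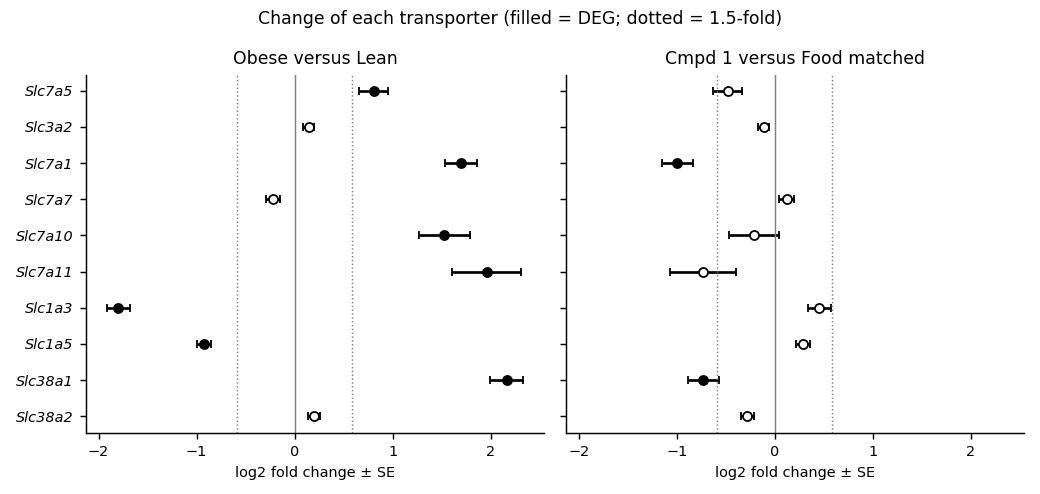
Log2 fold change ± SE of each transporter for Obese versus Lean (left) and Cmpd 1 versus Food matched rats (right), from edgeR. Filled points are DEGs and dotted lines mark 1.5-fold. On the left 5 genes lie beyond the line on the higher side and 2 on the lower side, and on the right Slc7a1 and Slc38a1 are filled on the lower side.

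Slc7a1 (ENSRNOG00000000924, rn6 chr12:8032809-8108972) encodes the main carrier for arginine and lysine in many cells. It measured 12.6, 7.98, 7.64, 7.08 and 7.96 CPM in Cmpd 1 rats and 21.3, 17.3, 18.9, 16.2 and 13.0 CPM in Food matched rats. It measured 15.3, 13.6, 14.9, 17.5 and 14.1 CPM in Obese rats and 4.09, 5.20, 6.20, 3.86 and 3.85 CPM in Lean rats. Cmpd 1 rats lay between the Lean rats and both other obese groups, with no overlap on either side, although the highest Cmpd 1 rat (rat 1) came close to the lowest Food matched rat. The log2 fold change was 1.70 (SE 0.16, edgeR adjusted p = 4.1e-08) for Obese versus Lean, a 3.25-fold higher level. For Cmpd 1 versus Food matched it was -0.997 (SE 0.16, edgeR adjusted p = 0.00027), a 2.00-fold lower level. Against Lean rats, Cmpd 1 rats still had 1.87-fold more Slc7a1 mRNA (log2 0.90, SE 0.16, edgeR adjusted p = 0.00018).

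Slc38a1 (ENSRNOG00000005291, rn6 chr7:137975549-138039984) encodes a sodium-coupled carrier of glutamine and other small neutral amino acids. It showed the largest absolute log2 fold change of the 10 in Obese versus Lean rats. Its levels were 10.7, 7.59, 6.43, 5.76 and 7.12 CPM in Cmpd 1 rats and 13.7, 13.1, 15.3, 10.6 and 9.74 CPM in Food matched rats. They were 10.1, 9.56, 12.8, 14.2 and 13.3 CPM in Obese rats and 2.49, 2.70, 2.47, 3.36 and 2.34 CPM in Lean rats. Lean rats lay below every obese rat, while Cmpd 1 rat 1 fell within the Food matched and Obese ranges and the other 4 Cmpd 1 rats lay below both. The log2 fold change was 2.17 (SE 0.17, edgeR adjusted p = 3e-09) for Obese versus Lean, a 4.49-fold higher level, and -0.73 (SE 0.16, edgeR adjusted p = 0.0026) for Cmpd 1 versus Food matched, a 1.66-fold lower level.

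Slc38a2 (ENSRNOG00000006305), the close relative of Slc38a1 that many cells raise when amino acids run short, lies on the same strand 48664 bases away from it (rn6 chr7:138088649-138100841). Its group means were 124 ± 11.2 CPM in Cmpd 1 rats, 151 ± 10.1 in Food matched rats, 133 ± 7.65 in Obese rats and 116 ± 7.90 in Lean rats (SD, n = 5 each). The differences were small and passed the test: 0.20 (SE 0.06, edgeR adjusted p = 0.015) for Obese versus Lean, without overlap, and -0.28 (SE 0.06, edgeR adjusted p = 0.0034) for Cmpd 1 versus Food matched, where 1 Cmpd 1 rat overlapped. Neither reached 1.5-fold.

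Slc1a3 (ENSRNOG00000016163, rn6 chr2:57860834-57935363) encodes a glutamate and aspartate carrier best known from glial cells of the brain. Its levels were 58.4, 61.5, 81.6, 74.6 and 64.4 CPM in Cmpd 1 rats and 65.0, 42.4, 49.8, 40.2 and 51.2 CPM in Food matched rats. They were 39.9, 52.0, 40.6, 46.7 and 45.7 CPM in Obese rats, against 153, 156, 180, 157 and 136 CPM in Lean rats. Lean rats were far above all obese rats, and Cmpd 1 rats were above all Obese rats but overlapped the Food matched group through Food matched rat 1. Obese rats had 3.47-fold less Slc1a3 mRNA than Lean rats (log2 -1.80, SE 0.12, edgeR adjusted p = 7.6e-10). Cmpd 1 rats had 1.37-fold more than Food matched rats (log2 0.45, SE 0.12, edgeR adjusted p = 0.0077), which is below the fold threshold.

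Slc1a5 (ENSRNOG00000015948, rn6 chr1:78710539-78724794) encodes a sodium-dependent exchanger of glutamine, serine and alanine. Its levels were 449, 449, 448, 490 and 460 CPM in Cmpd 1 rats and 411, 318, 360, 386 and 407 CPM in Food matched rats. They were 402, 414, 358, 410 and 399 CPM in Obese rats, against 729, 642, 835, 789 and 761 CPM in Lean rats. Every Cmpd 1 rat lay above every Food matched and every Obese rat and below every Lean rat. The fold was 1.89-fold lower in Obese than in Lean rats (log2 -0.92, SE 0.07, edgeR adjusted p = 3e-09) and 1.22-fold higher in Cmpd 1 than in Food matched rats (log2 0.29, SE 0.07, edgeR adjusted p = 0.0061). Slc1a5 and Slc38a1 carry overlapping substrates, and their mRNAs had opposite signs in both contrasts.

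Slc3a2 (ENSRNOG00000018487, rn6 chr1:224906554-224921092), the shared heavy chain, varied least. It averaged 141 ± 7.30 CPM in Cmpd 1 rats, 152 ± 8.55 in Food matched rats, 150.4 ± 6.83 in Obese rats and 136 ± 11.2 in Lean rats (SD, n = 5 each), and all 4 ranges overlapped. The log2 difference was 0.14 (SE 0.06, edgeR adjusted p = 0.042) for Obese versus Lean, a call lost without any of Lean rats 2, 4 and 5 or Obese rats 1, 3 and 4 (edgeR adjusted p = 0.052 to 0.135), and -0.11 (SE 0.06, edgeR adjusted p = 0.18) for Cmpd 1 versus Food matched. In 1 test over the 4 groups, 9 of the 10 transporters passed, where 54.6% of all genes did, and Slc3a2 was the exception (edgeR adjusted p = 0.053).

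Of its light chains, Slc7a5 (ENSRNOG00000018824, rn6 chr19:54693959-54722563) carries leucine and other large neutral amino acids and is a main entry route for the leucine that activates mTORC1. It measured 17.2, 9.28, 11.5, 10.4 and 11.7 CPM in Cmpd 1 rats and 20.9, 14.7, 16.1, 17.9 and 14.6 CPM in Food matched rats. It measured 14.6, 13.3, 15.5, 16.8 and 13.3 CPM in Obese rats, against 6.79, 7.17, 9.16, 10.8 and 8.07 CPM in Lean rats. Obese and Lean rats did not overlap, and 4 of the 5 Cmpd 1 rats lay below every Food matched and Obese rat, while Cmpd 1 rat 1 fell within the Food matched range and above the Obese range. Slc7a5 was 1.75-fold higher in Obese than in Lean rats (log2 0.81, SE 0.15, edgeR adjusted p = 0.00015). For Cmpd 1 versus Food matched the log2 fold change was -0.48 (SE 0.15, edgeR adjusted p = 0.024), below the fold threshold, and without Cmpd 1 rat 1 it was -0.65 (edgeR adjusted p = 0.0016), beyond it.

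Slc7a10 (ENSRNOG00000010938, rn6 chr1:91433030-91448564) exchanges small neutral amino acids such as serine, glycine and alanine and is known as a surface protein of white adipocytes in mouse and human. Its levels were 60.4, 75.4, 47.1, 58.6 and 72.9 CPM in Cmpd 1 rats and 69.7, 52.2, 79.8, 67.2 and 96.1 CPM in Food matched rats. They were 82.2, 82.6, 81.4, 82.6 and 71.8 CPM in Obese rats, against 14.1, 12.5, 39.3, 42.8 and 30.6 CPM in Lean rats. All obese rats of the 3 groups lay above all Lean rats, and Cmpd 1 and Food matched rats overlapped widely. Slc7a10 was 2.88-fold higher in Obese than in Lean rats (log2 1.53, SE 0.26, edgeR adjusted p = 5.8e-05), and the log2 difference between Cmpd 1 and Food matched rats was -0.21 (SE 0.25, edgeR adjusted p = 0.62). The lowest 2 levels were those of Lean rats 1 and 2, the rats with muscle transcripts. Without these rats the log2 fold change for Obese versus Lean was 1.09 (edgeR adjusted p = 2.48e-05). The last 204 bases of Slc7a10 overlap Lrp3 on the opposite strand, and whether reads were counted by strand is not given in the sources used here, so reads of both genes there cannot be told apart. Lrp3 averaged 25.0 ± 2.12 CPM in Cmpd 1 rats, 19.9 ± 1.10 in Food matched rats, 19.7 ± 2.07 in Obese rats and 21.6 ± 2.39 in Lean rats (SD, n = 5 each). The other 9 genes overlap no annotated gene.

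Slc7a11 (ENSRNOG00000010210, rn6 chr2:139453774-139528162), which imports cystine for glutathione synthesis in exchange for glutamate, had few reads. Counts were 46, 61, 39, 36 and 71 reads in Cmpd 1 rats and 69, 141, 64, 134 and 112 reads in Food matched rats. They were 133, 66, 68, 82 and 115 reads in Obese rats, against 9, 33, 5, 42 and 29 reads in Lean rats. At this depth the level was 1.49 ± 0.342 CPM in Obese rats and 0.377 ± 0.246 CPM in Lean rats (SD, n = 5 each), without overlap. The fold was 3.89-fold higher in Obese than in Lean rats (log2 1.96, SE 0.35, edgeR adjusted p = 0.00011). Cmpd 1 rats averaged 0.976 ± 0.222 CPM and Food matched rats 1.62 ± 0.419 CPM (SD, n = 5 each), with overlap, and the log2 difference of -0.73 (SE 0.34) did not pass (edgeR adjusted p = 0.13).

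Slc7a7 (ENSRNOG00000010296, rn6 chr15:33013504-33051129) exports arginine and lysine in exchange for neutral amino acids, the reverse direction to Slc7a1. It averaged 23.1 ± 1.76 CPM in Cmpd 1 rats, 21.2 ± 1.59 in Food matched rats, 22.3 ± 2.31 in Obese rats and 25.96 ± 1.62 in Lean rats (SD, n = 5 each). It was 1.17-fold lower in Obese than in Lean rats (log2 -0.22, SE 0.07, edgeR adjusted p = 0.015), with overlap, and the log2 difference between Cmpd 1 and Food matched rats was 0.12 (SE 0.07, edgeR adjusted p = 0.26).

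Food restriction alone was compared by setting Food matched against Obese rats. None of the 10 transporters was a DEG (0 with edgeR, 0 with limma-voom and 0 with DESeq2), where 0% of all genes were DEGs with edgeR. The count over all genes was 10 with limma-voom, 69 with DESeq2 and 93 with edgeR without Food matched rat 5, against 0 for all libraries. At an unadjusted p under 0.05 (edgeR) 1 transporter differed, Slc38a2, with a log2 fold change of 0.18 (SE 0.06, adjusted p = 0.30), where 10.7% of all genes did. The log2 differences of the other 9 were between -0.13 (Slc7a10, SE 0.25) and 0.20 (Slc7a1, SE 0.16, and Slc7a5, SE 0.15).

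Cmpd 1 rats were also set against the untreated Obese rats, a comparison that shares its Cmpd 1 libraries with Cmpd 1 versus Food matched and its Obese libraries with Obese versus Lean and Food matched versus Obese. Of the 10 transporters 3 were DEGs, where 3.53% of all genes were. Leaving out Cmpd 1 rat 4 brought the 623 DEGs over all genes to 365, and leaving out Obese rat 4 brought them to 401. Slc7a1 was lower (log2 -0.80, SE 0.16, edgeR adjusted p = 0.0034), as was Slc38a1 (log2 -0.67, SE 0.16, edgeR adjusted p = 0.0094). Slc1a3 was higher (log2 0.60, SE 0.12, edgeR adjusted p = 0.0032) and lay so close to the fold threshold of 0.585 that leaving out any of Obese rats 1 and 3 or Cmpd 1 rats 3 and 4 put it below. Slc1a5 had a log2 fold change of 0.21 (SE 0.07, edgeR adjusted p = 0.051) with no overlap between the groups.

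Against the Lean group, 6 of the 10 were DEGs in Cmpd 1 rats, where 16.6% of all genes were, and 7 in Food matched rats, where 25.3% were. These comparisons share the Lean libraries with each other and with Obese versus Lean. Slc38a1 was 2.82-fold higher in Cmpd 1 rats and 4.68-fold higher in Food matched rats than in Lean rats, Slc7a11 2.55-fold and 4.23-fold, Slc7a10 2.26-fold and 2.62-fold, and Slc7a1 1.87-fold and 3.73-fold. Slc1a3 was 2.30-fold lower in Cmpd 1 rats and 3.15-fold lower in Food matched rats, and Slc1a5 1.64-fold and 1.996-fold lower. Slc7a5 was the DEG that Food matched rats had and Cmpd 1 rats had not, at 2.003-fold higher in Food matched rats and 1.44-fold higher in Cmpd 1 rats (log2 0.52, SE 0.15, edgeR adjusted p = 0.0088). Without Lean rat 4 or Cmpd 1 rat 2 the log2 value for Cmpd 1 was 0.63 or 0.60, which is beyond the threshold.

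Levels can be compared between genes only per length, here as RPKM, the CPM divided by the gene length of the count table in kilobases. Slc1a5 was highest in every group, at 167 RPKM in Cmpd 1 rats, 137 in Food matched rats, 144 in Obese rats and 273 in Lean rats, and Slc3a2 came next at 66.3 to 74.2 RPKM. Slc7a11 was lowest at 0.0423 to 0.182 RPKM, with Slc7a1 above it at 0.704 to 2.63 RPKM, in each case without overlap with its neighbours in any group. The middle of the order differed between groups. In Obese rats Slc7a10 ranked above Slc38a2, Slc7a7 and Slc1a3 (42.7, 28.8, 12.5 and 11.3 RPKM), and only Slc7a7 and Slc1a3 overlapped among these. In Lean rats Slc1a3 was above all of these (39.2 RPKM), and Slc38a2, Slc7a10 and Slc7a7 followed at 25.1, 14.8 and 14.6 RPKM, where Slc7a10 overlapped both neighbours. In the Cmpd 1 group Slc7a10 overlapped Slc38a2 and Slc7a5 overlapped Slc38a1, and in the Food matched group these pairs and Slc1a3 with Slc7a7 overlapped. In the Obese group Slc38a1 overlapped Slc7a5.

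**Figure D3:**
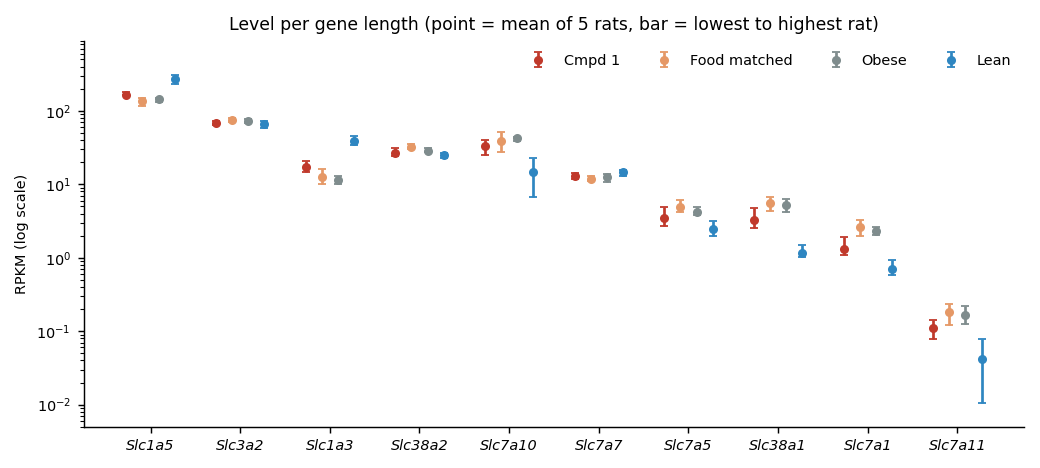
Mean level of each transporter in RPKM on a log axis, ordered by the Lean group. Points are group means of 5 rats for Cmpd 1, Food matched, Obese and Lean, and bars run from the lowest to the highest rat. Slc1a5 is at the top and Slc7a11 at the bottom in each group, and Slc1a3 and Slc7a10 trade places between the Lean group and the others.

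The 10 transporters together summed to 334 ± 9.42 RPKM in Cmpd 1 rats, 320 ± 23.8 in Food matched rats, 325 ± 10.3 in Obese rats and 437 ± 39.8 in Lean rats (SD, n = 5 each). Slc1a5 made up 49.9% ± 1.30 of that sum in Cmpd 1 rats, 42.7% ± 1.71 in Food matched rats, 44.4% ± 1.70 in Obese rats and 62.4% ± 0.931 in Lean rats (SD, n = 5 each). The 5 Cmpd 1 rats (48.3% to 51.6%) overlapped no other group in this share.

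Markers of some cell types also differed between the groups. The summed level of 12 macrophage markers ran from 4587 to 6705 CPM in Cmpd 1 rats, 7584 to 13113 in Food matched rats, 6885 to 9306 in Obese rats and 2404 to 3309 in Lean rats, and no marker was at 0. In Obese rats this sum was carried largely by Gpnmb and Lyz2 (means of 2902 and 2200 CPM, against 359 and 560 CPM in Lean rats). Of the 12, 7 were DEGs higher in Obese than in Lean rats and 2 lower (Cd163 and C1qb), where 11.3% and 11% of all genes were. In Cmpd 1 versus Food matched rats 7 were DEGs lower and 0 higher, where 4.65% and 1.54% of all genes were (edgeR). Cd163, C1qb and C1qa did not pass in that contrast (edgeR adjusted p = 0.33, 0.92 and 0.076). The mean levels of 6 transporters (Slc7a1, Slc38a1, Slc7a5, Slc7a11, Slc38a2 and Slc3a2) had the group order of the macrophage medians, Food matched above Obese above Cmpd 1 above Lean. Slc1a5 and Slc7a7 had the reverse order. The step between Obese and Food matched rats passed an adjusted p under 0.05 for 0 of the 10 transporters (edgeR). How many of all genes had either order was not counted. Within the Cmpd 1 group, the macrophage sum was 6476, 6705, 5727, 4587 and 5603 CPM in rats 1 to 5. Rats 1 and 2 had the highest sums and rat 4 the lowest. Rat 4 also had the lowest Slc7a1, Slc38a1 and Slc38a2, and rat 1 had the highest of these and of Slc7a5 and Slc3a2. Rat 2, with the highest sum, however had the lowest Slc7a5 and Slc3a2 of its group, and rat 1 had the lowest Slc7a11. The summed level of 12 adipocyte markers was 30266 to 31878 CPM in Cmpd 1 rats, 27742 to 34124 in Food matched rats, 30685 to 36609 in Obese rats and 32285 to 39534 in Lean rats. Every Cmpd 1 rat lay below every Lean rat in this sum, and all other pairs of groups overlapped. Single markers moved. Of the 12, 8 were lower and 1 higher in Obese than in Lean rats at an adjusted p under 0.05, where 48.2% of all genes differed. The median log2 fold change was -0.49, and 5 were DEGs lower and 1 higher, where 11% and 11.3% of all genes were. In Cmpd 1 versus Food matched rats 6 were higher and 2 lower at that adjusted p, where 22.8% of all genes differed. Only 2 were DEGs there, both higher, where 6.19% of all genes were DEGs (all with edgeR). Lower in Obese and higher in Cmpd 1 rats are also the signs of Slc1a3 and Slc1a5. Schwann cell markers (5 genes) summed to 1495 to 1672 CPM in Cmpd 1 rats, 1188 to 1646 in Food matched rats, 1521 to 1881 in Obese rats and 2098 to 2420 in Lean rats, so that Lean rats lay above all others, as for Slc1a3. Fibroblast and preadipocyte markers (7 genes) summed to 9167 to 10380 CPM in Cmpd 1 rats, 9945 to 14246 in Food matched rats, 10640 to 17873 in Obese rats and 7087 to 9428 in Lean rats, with no overlap between Obese and Lean rats. This sum was carried largely by Col3a1 and Col1a1 (means of 8780 and 3244 CPM in Obese rats, 4468 and 1524 CPM in Lean rats). The single genes were split, with 3 DEGs higher (Col3a1, Col1a1 and Lum) and 3 lower (Pi16, Dpp4 and Dcn) in Obese than in Lean rats (edgeR). Of all genes, 11.3% and 11% were DEGs in these directions. In Cmpd 1 versus Food matched rats 1 of the 7 was a DEG, Lum, which was lower, where 6.19% of all genes were DEGs. For Obese versus Lean, DEGs were 1 of 8 lymphocyte markers (higher), 2 of 6 endothelial and 4 of 5 gland epithelium markers (lower), where 22.3% of all genes were. For Cmpd 1 versus Food matched, 0 of each of these 3 lists were DEGs, where 6.19% of all genes were (edgeR). The lymphocyte and endothelial sums overlapped between all groups. In bulk tissue, fewer cells of a type and less RNA per cell cannot be told apart, and the part of the macrophage, adipocyte, Schwann cell and fibroblast markers in the transporter differences was not tested.

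**Figure D4:**
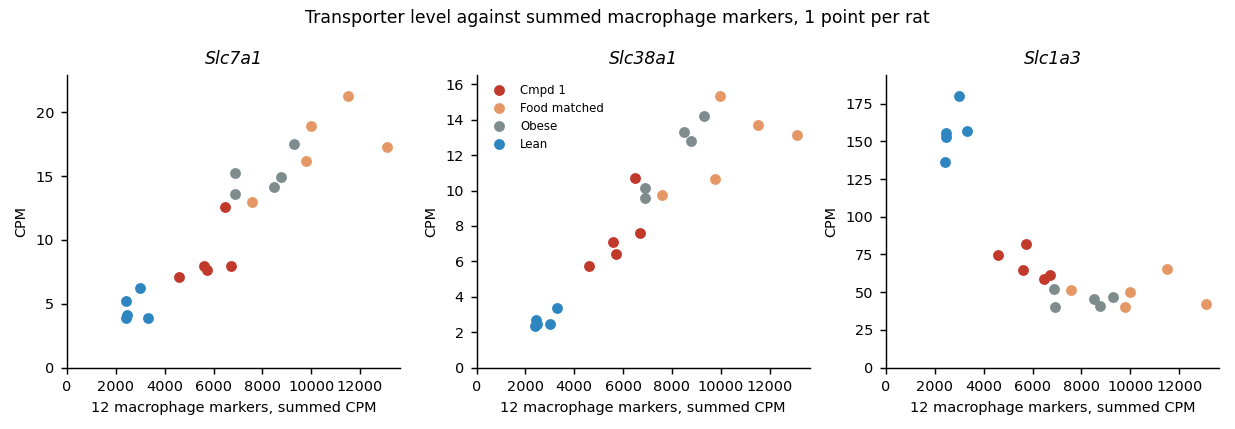
Level of Slc7a1, Slc38a1 and Slc1a3 (vertical axes, CPM) against the summed level of 12 macrophage markers (horizontal axes, CPM), with 1 point per rat coloured by group. Lean rats sit at the left at 2404 to 3309 CPM of macrophage markers, Cmpd 1 rats at 4587 to 6705 CPM, and Obese and Food matched rats to the right of both.

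The 2 transporters with the widest range of group means on the log2 scale were Slc7a11 and Slc38a1. Over the 20 libraries, the genes whose log2 CPM was most like Slc38a1 were Ccnf, Glipr1 and Uhrf1 (Pearson r = 0.99 each). Ccnf and Uhrf1 are known from dividing cells, where they encode cyclin F and a factor that keeps DNA methylation after replication. Uhrf1 averaged 8.30 CPM in Cmpd 1 rats, 15.3 in Food matched rats, 14.5 in Obese rats and 2.17 in Lean rats. Those most like Slc7a11 were Nckipsd (r = 0.91), Alx4 and Samd4a (r = 0.90 each). These correlations are descriptions across libraries that share the group differences.

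Among the other plasma membrane amino acid transporters, 33 of the 40 listed were tested. In Obese versus Lean rats 7 were DEGs higher and 8 lower, where 11.3% and 11% of all genes were, and in Cmpd 1 versus Food matched rats 2 were higher and 1 lower, where 1.54% of all genes were higher and 4.65% lower. Slc43a1, a carrier of leucine and other large neutral amino acids that works without Slc3a2, averaged 25.3 ± 4.08 CPM in Cmpd 1 rats, 14.7 ± 0.747 in Food matched rats, 14.3 ± 1.41 in Obese rats and 43.9 ± 2.76 in Lean rats (SD, n = 5 each). It was lower in Obese than in Lean rats (log2 -1.62, SE 0.09, edgeR adjusted p = 1.3e-10) and higher in Cmpd 1 than in Food matched rats (log2 0.78, SE 0.09, edgeR adjusted p = 3.5e-05), the reverse of Slc7a5, which carries similar substrates. Its relative Slc43a2 was higher in Obese than in Lean rats (log2 1.03, SE 0.09, edgeR adjusted p = 7.4e-09). Slc36a2, a proton-coupled carrier of glycine and proline known as a surface marker of brown and beige adipocytes in mouse, averaged 14.6 ± 2.22 CPM in Cmpd 1 rats, 7.68 ± 1.83 in Food matched rats, 9.29 ± 2.16 in Obese rats and 44.9 ± 8.27 in Lean rats (SD, n = 5 each). It was a DEG in both contrasts, at -2.27 for Obese versus Lean (SE 0.17, edgeR adjusted p = 1.6e-09) and 0.93 for Cmpd 1 versus Food matched (SE 0.16, edgeR adjusted p = 0.00052). Its relative Slc36a3 went the other way in both, at 2.75 (SE 0.25, edgeR adjusted p = 2e-08) and -0.72 (SE 0.22, edgeR adjusted p = 0.024), at a level of at most 1.95 CPM in any group mean. Slc38a9, kept in this list although it is known as a lysosomal arginine sensor, and Slc6a6, the taurine carrier, were higher in Obese than in Lean rats at 1.01 (SE 0.10, edgeR adjusted p = 5.7e-08) and 1.14 (SE 0.11, edgeR adjusted p = 6.3e-08), and neither was a DEG for Cmpd 1 versus Food matched.

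**Figure D5:**
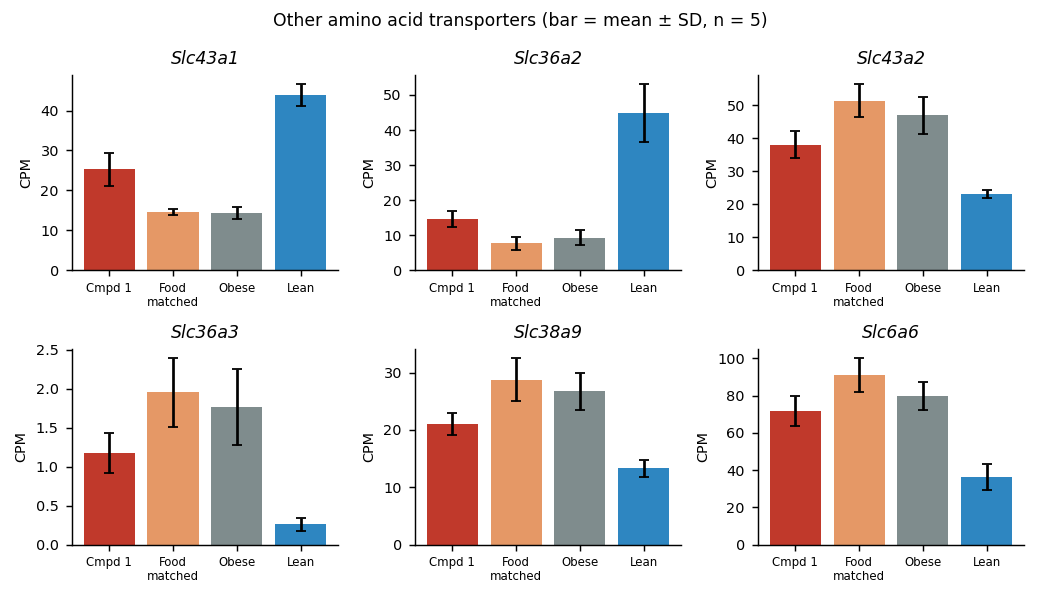
Group means ± SD (n = 5) of 6 other amino acid transporters in CPM, for Cmpd 1, Food matched, Obese and Lean rats, on axes that start at 0. Slc43a1 and Slc36a2 are highest in Lean rats and higher in Cmpd 1 than in Food matched rats, while Slc43a2, Slc36a3, Slc38a9 and Slc6a6 are lowest in Lean rats.

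Of 9 mitochondrial amino acid carriers, 3 were DEGs for Obese versus Lean (2 higher, 1 lower), where 22.3% of all genes were, and 2 for Cmpd 1 versus Food matched (1 higher, 1 lower), where 6.19% were. Slc25a13, an aspartate-glutamate carrier, was higher in Obese rats (log2 1.61, SE 0.17, edgeR adjusted p = 1.3e-07) and lower in Cmpd 1 than in Food matched rats (log2 -0.68, SE 0.16, edgeR adjusted p = 0.0047). Slc25a29, a carrier of basic amino acids, was lower in Obese rats (log2 -1.12, SE 0.17, edgeR adjusted p = 1.8e-05) and higher in Cmpd 1 rats (log2 0.99, SE 0.17, edgeR adjusted p = 0.00055).

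The ATF4 response list, with 23 of 26 genes tested, had 9 DEGs for Obese versus Lean (5 higher, 4 lower), where 22.3% of all genes were, with a median log2 fold change of -0.03. The stress factor Atf3 and the mitochondrial folate enzyme Mthfd2 were higher in Obese rats (log2 2.22, SE 0.19, edgeR adjusted p = 7.7e-09, and 1.83, SE 0.20, edgeR adjusted p = 2e-07). The 3 enzymes of serine synthesis were lower, at -0.71 for Phgdh, -0.77 for Psat1 and -0.63 for Psph (edgeR adjusted p = 3.1e-07, 7.3e-07 and 1.1e-06). In Cmpd 1 versus Food matched rats 3 of the 23 were DEGs, all lower, where 6.19% of all genes were DEGs. They were Mthfd2 (log2 -0.92, SE 0.19, edgeR adjusted p = 0.0017), the secreted glycoprotein gene Stc2 (log2 -0.94, SE 0.21, edgeR adjusted p = 0.0035) and Chac1, which degrades glutathione (log2 -1.70, SE 0.38, edgeR adjusted p = 0.0029) and was named after its values were seen. The level of Chac1 was low, with means of 0.223 CPM in Cmpd 1 rats and 0.736 CPM in Food matched rats. Atf4 itself averaged 242 CPM in Cmpd 1 rats, 287 in Food matched rats, 278 in Obese rats and 235 in Lean rats, and was a DEG in neither contrast. Its Obese (262 to 302 CPM) and Lean values (225 to 258 CPM) did not overlap, as for 33.6% of all genes. Its Cmpd 1 (222 to 278 CPM) and Food matched values (267 to 310 CPM) did overlap.

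Of 14 genes of the NRF2 and glutathione pathway tested, 2 were DEGs in Obese versus Lean rats, both higher, where 22.3% of all genes were, and 1 in Cmpd 1 versus Food matched rats, lower, where 6.19% were. Hmox1, the heme-degrading enzyme, averaged 71.1 ± 6.05 CPM in Cmpd 1 rats, 126 ± 22.3 in Food matched rats, 91.6 ± 5.81 in Obese rats and 45.8 ± 7.05 in Lean rats (SD, n = 5 each). It was higher in Obese than in Lean rats (edgeR adjusted p = 2.4e-07) and lower in Cmpd 1 than in Food matched rats (log2 -0.83, SE 0.11, edgeR adjusted p = 7.1e-05). Srxn1, which repairs oxidised peroxiredoxins, was higher in Obese rats (log2 1.13, SE 0.16, edgeR adjusted p = 5.6e-06). Of 23 amino acid sensing and mTORC1 genes, 2 were DEGs for Obese versus Lean, where 22.3% of all genes were. Sesn3, a member of the stress-induced sestrin family, was 1.77-fold higher in Obese rats (edgeR adjusted p = 3.5e-05), and the Rag GTPase gene Rragd was 2.83-fold lower (edgeR adjusted p = 0.00043). In Cmpd 1 versus Food matched rats 0 of the 23 were DEGs with edgeR, where 6.19% of all genes were. At any fold 7 passed an adjusted p under 0.05 (4 higher and 3 lower, edgeR), where 22.8% of all genes did. An unadjusted p under 0.05 was reached by 10, and by 33.8% of all genes.

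Of 15 enzymes that make or use glutamine, glutamate, aspartate and arginine, 6 were DEGs for Obese versus Lean (3 higher, 3 lower), where 22.3% of all genes were, and 2 for Cmpd 1 versus Food matched (both lower), where 6.19% were. Glul, glutamine synthetase, was higher in Obese rats (log2 0.61, SE 0.09, edgeR adjusted p = 1.6e-05), as was the aspartate aminotransferase Got1 (log2 0.70, SE 0.08, edgeR adjusted p = 8.1e-07). The arginase Arg2 averaged 0.360 ± 0.0870 CPM in Cmpd 1 rats, 1.03 ± 0.156 in Food matched rats, 0.803 ± 0.299 in Obese rats and 0.270 ± 0.139 in Lean rats (SD, n = 5 each). It was higher in Obese than in Lean rats (log2 1.57, SE 0.32, edgeR adjusted p = 0.00033) and lower in Cmpd 1 than in Food matched rats (log2 -1.51, SE 0.31, edgeR adjusted p = 0.0017), the same signs as the arginine carrier Slc7a1. The alanine aminotransferase Gpt2 was lower in both, at -0.91 (SE 0.16, edgeR adjusted p = 7e-05) and -0.76 (SE 0.16, edgeR adjusted p = 0.0018).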

How the data were processed

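RNA of iWAT from 20 male ZSF1 rats, 5 in each of 4 groups, was sequenced from libraries of a stranded mRNA kit. The authors deposited raw counts per Ensembl gene, with each gene's position and length beside them. According to the study's methods, reads were mapped to the rat genome rn6 with STAR and those with a unique position were counted with featureCounts, so that reads shared by near-identical copies of a gene are missing from the counts. The processing notes of the submitters list STAR 2.5.2, Subread 1.5.1 and a human build (GRCh38), while the rows are rat genes. The Food matched rats carry the phenotype label lean, but titles and methods describe them as obese, and they were treated as obese. Each sample is a different rat. The highest correlation between 2 libraries was 0.992, and 0 columns were identical.

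A gene was left out if 10 of the 20 libraries (50%) or more had no read of it, which removed 14892 of 32545. CPM used library sizes scaled by TMM, and log2 CPM a prior count of 2. RPKM were computed from these CPM and the lengths in the table. All 4 groups entered the same quasi-likelihood fit of edgeR 4.0.16 (R 4.3.3), which left 16 residual degrees of freedom, and Benjamini-Hochberg adjustment ran over 17653 genes. As in the study's methods, a DEG had an adjusted p under 0.05 and a fold over 1.5, which is 0.585 in log2 units. limma-voom (limma 3.58.1) and DESeq2 1.42.0, other scalings and filters, a replicate block and leaving out rats served as alternatives. The code was tested on simulated data. The precision of low genes is limited by their reads, which are given for Slc7a11.

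The transporters and gene lists were chosen with earlier results of these data known. Named genes are the 10 transporters, up to 6 DEGs of each list with the smallest adjusted p in either of the study's contrasts, and the 3 genes most correlated with each of the 2 transporters of widest range. Promoter sequences come from RefSeq (GRCr8), whose coordinates differ from the rn6 coordinates of the genes.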

Additional observations from a re-analysis of the deposited data

Results flagged for a closer look

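In 4 of the 40 groups of 5 values (10 transporters in 4 groups), 1 rat stood apart by a gap to its nearest neighbour of more than 0.71 of the group's range, a limit that chance passes in about 1 of 20 groups. Slc7a1 was 12.6 CPM in Cmpd 1 rat 1, with the other Cmpd 1 rats at 7.08 to 7.98 CPM. The same rat had the highest level of its group for 5 of the 10 transporters (Slc7a1, Slc38a1, Slc38a2, Slc7a5 and Slc3a2) and the lowest for Slc1a3 and Slc7a11. Slc7a10 was 71.8 CPM in Obese rat 5, with the other Obese rats at 81.4 to 82.6 CPM. Slc1a5 was 490 CPM in Cmpd 1 rat 4, which had the fewest reads of all libraries, with the other Cmpd 1 rats at 448 to 460 CPM. Slc1a5 was 358 CPM in Obese rat 3, with the other Obese rats at 399 to 414 CPM.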

How the results depend on the processing

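The counts of DEGs among the 10 transporters held within 1.5 times under every alternative run. With 1 rat left out in turn they were 7 to 7 for Obese versus Lean, 2 to 3 for Cmpd 1 versus Food matched, 2 to 3 for Cmpd 1 versus Obese, 0 to 0 for Food matched versus Obese, 6 to 7 for Cmpd 1 versus Lean and 7 to 7 for Food matched versus Lean, and 9 to 10 passed the test over the 4 groups. Of the single transporter values, 478 of those under the other alternatives kept their direction and stayed on the same side of the DEG thresholds (fold and adjusted p together). The exceptions were Slc1a3 for Cmpd 1 versus Obese without a filter on low counts (0.57) and Slc7a11 for Cmpd 1 versus Food matched when only these groups were fitted (-0.73, edgeR adjusted p = 0.030, which made it a DEG there). With a rat left out, 1189 did so, 4 fell below and 3 rose past the thresholds (Slc1a3 and Slc7a5, given above), and 4 signs turned, all of them for Food matched versus Obese at values near 0. Slc38a1 was -0.01 without Obese rat 2 and -0.0245 without Food matched rat 3 (range -0.0245 to 0.136), and Slc3a2 was -0.00437 without Obese rat 5 and -0.011 without Food matched rat 5 (range -0.011 to 0.0402). The causes were not tested. The adjusted p alone crossed 0.05 in 15 values under the other alternatives and 18 with a rat left out. These were mostly Slc3a2 for Obese versus Lean and Food matched versus Lean, Slc7a5 for Cmpd 1 versus Food matched and Slc1a5 for Cmpd 1 versus Obese. Slc7a7 for Obese versus Lean was at 0.053 without Obese rat 5, and Slc7a5 for Cmpd 1 versus Lean at 0.094 without Lean rats 1 and 2 (edgeR). Without Lean rats 1 and 2, whose samples held muscle transcripts, Obese versus Lean still gave 7 DEGs. Few reads limit Slc7a11, where a Lean library held as few as 5.

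The replicate numbers in the titles did not pair the rats. Same-numbered rats correlated in their deviations by -0.01 to 0.15 for Obese versus Lean and -0.01 to 0.07 for Cmpd 1 versus Food matched, and 1 of 5 and 2 of 5 correlated best with their own number. With the replicate number as a block, the counts of DEGs were 7 for Obese versus Lean, 2 for Cmpd 1 versus Food matched, 3 for Cmpd 1 versus Obese, 0 for Food matched versus Obese, 6 for Cmpd 1 versus Lean and 7 for Food matched versus Lean, and 10 passed the test over the 4 groups.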
